A study of Mus musculus with 7 samples.

Results

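The genes described here are 10 genes that mark Müller glia or encode metallothioneins: *Glul*, *Slc1a3*, *Rlbp1*, *Apoe*, *Clu*, *Gfap*, *Vim*, *Mt1*, *Mt2* and *Mt3*. They were picked by name from a table of 48440 genes, and all 10 were among the 20019 genes that passed the expression filter. PTBP1 is an RNA-binding protein that represses exon use, and its removal had been proposed to turn glia into neurons, so the question was whether glial genes differ at the stage when the embryonic retina consists largely of progenitors and young neurons. The data are bulk RNA-seq counts from 7 libraries of mouse retina at E16. The single WT library came from Chx10Cre retinas, the 3 Het libraries from Chx10-Cre;Ptbp1lox/WT retinas and the 3 KO libraries from Chx10-Cre;Ptbp1lox/lox retinas. All 7 therefore carry the Cre transgene, WT included, and the labels name no agent. Cre is driven in retinal progenitors, from which blood vessels, microglia and the astrocytes that enter from the optic nerve do not arise. The loxP sites flank the promoter and the first exon of the gene. Each library was a pool of retinas, and by the study methods the pools of KO1 and KO2 held the fewest. The labels do not say that the pools came from separate litters, so p-values measure the spread between these pools only.

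Müller glia are the radial glia of the retina and are the last cell class that retinal progenitors produce. They clear glutamate and ammonia from synapses, recycle retinoids, carry lipids and hold the tissue together with intermediate filaments. Progenitors and Müller glia share much of their transcriptome, so a gene named for glia can be abundant in a retina that has no mature glia yet. Metallothioneins are small cysteine-rich proteins that bind zinc and copper, are induced through metal response elements by the zinc sensor MTF1, and also respond to glucocorticoids and stress.

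Values are CPM, that is counts divided by the TMM-corrected library total, with the SD over 3 libraries. KO was compared with Het by edgeR's quasi-likelihood test over all genes, and a gene was called at a Benjamini-Hochberg adjusted p below 0.05 if its log2 fold change also exceeded 0.26 in size. The totals lay between 120593979 and 171117305 counts per library, and WT, with 1 library, has no error. *Ptbp1* stood at 381 CPM in WT, at 210, 219 and 234 in Het1 to Het3 and at 27.9, 6.04 and 46.9 in KO1 to KO3, a log2 fold change of -3.04 (SE 0.64, edgeR adjusted p = 0.0316). With 1 library left out its log2 fold change lay between -3.70 and -2.56, and the adjusted p was above 0.05 without Het1, Het2, Het3 or KO1 (0.0519, 0.0964, 0.0935 and 0.0744). The libraries followed their labels, with KO below Het and Het below WT.

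Marker genes of tissues other than neural retina differed between libraries. Het1 stood apart, with a summed 337 CPM over the skeletal muscle list against 5.06 to 6.01 in the other libraries. Its pigmented epithelium list summed to 561 CPM against 41.6 to 85.0 in the others, led by *Pmel*, a melanosome protein, although *Rpe65*, the retinoid isomerase of mature pigmented epithelium, stayed near 0. KO1 and KO2 were low in the erythroid list, at 37.1 and 24.5 CPM against 189 to 531 in WT, the Het libraries and KO3. The lens list summed to 4.22 and 8.86 CPM in KO1 and KO2 against 20.7 to 109 in the others. In bulk tissue, fewer cells of a type and less RNA per cell cannot be told apart.

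**Figure D1:**
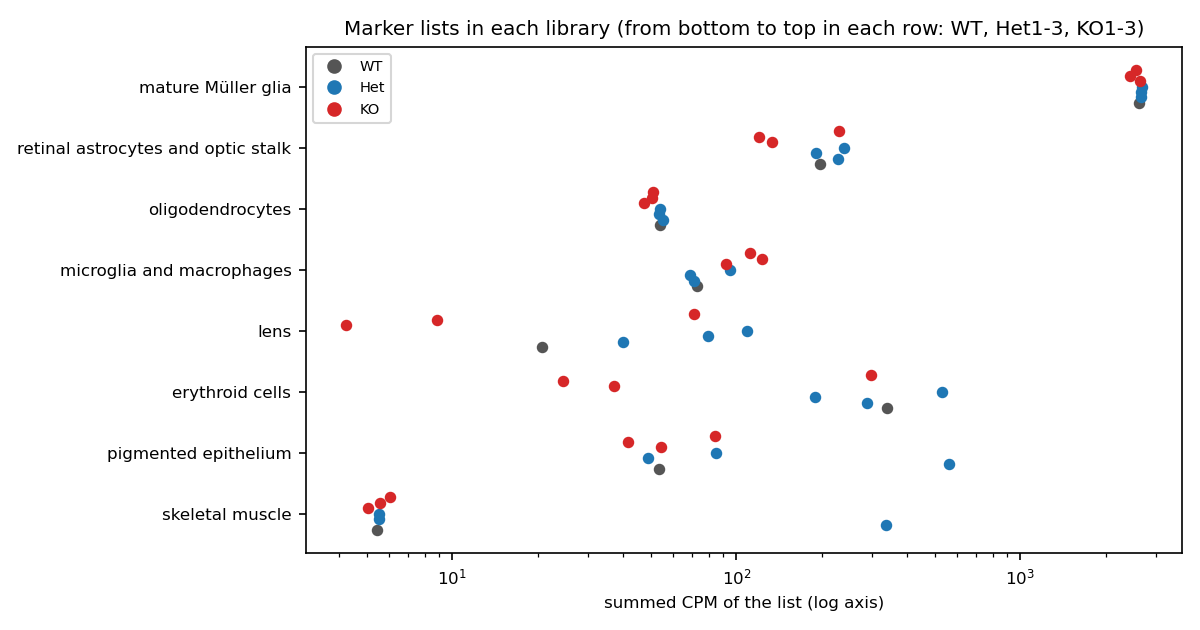
Summed CPM of the genes of each marker list (x axis, log scale) for 8 cell types or tissues (y axis), with 1 point per library coloured by genotype. Het1 is the blue point far to the right for skeletal muscle (337 CPM) and pigmented epithelium (561 CPM), and KO1 and KO2 are the red points on the left for lens and erythroid cells. The mature Müller glia list sums to 2651 to 2684 CPM in Het and to 2433 to 2637 CPM in KO, with *Dkk3* as its most abundant gene. Without *Dkk3* the sums are 1153, 1057 and 1080 CPM in Het and 1238, 1093 and 1108 CPM in KO.

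The level of a gene named for Müller glia does not by itself mark these cells at E16, since progenitors share many such genes. Of the 20 genes of the mature Müller glia list, 19 were above 1 CPM in WT, with *Dkk3* highest at 1554 CPM, so single genes do not stand for the list. *Aqp4*, the water channel of mature Müller glia, was measured at 0.958 to 1.85 CPM, while *Lhx2* and *Sox9*, transcription factors shared with progenitors, stood at 276 to 305 and at 117 to 134 CPM. Levels of different genes were compared per length, as TPM on GENCODE exon lengths. *Glul* was highest with a median of 849 TPM, followed by *Vim* with 448, *Apoe* with 165, *Slc1a3* with 117, *Rlbp1* with 31.3, *Clu* with 16.3, *Mt1* with 16.1, *Mt2* with 9.58, *Mt3* with 4.72 and *Gfap* with 3.94. The ranges over the 7 libraries did not overlap between *Glul* and *Vim*, between *Vim* and *Apoe* or between *Slc1a3* and *Rlbp1*. They overlapped for all other neighbours in this order, and *Mt3* exceeded *Gfap* in 3 of 7 libraries.

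Of the 10 genes, 1 was called between KO and Het, and that gene, *Gfap*, was higher in KO, with no gene called lower. Over all genes tested, 1445 were called (7.22%), 802 of them higher (4.01%) and 643 lower (3.21%) in KO. These shares are also the background for the calls in the gene lists below. No overlap of Het with KO was seen in 4 of the 10 genes, *Slc1a3* and *Gfap* being higher and *Vim* and *Mt2* lower in KO, a share close to the 36.3% of all genes tested. Of the 10 log2 fold changes, 5 were above 0 and 5 below.

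**Figure D2:**
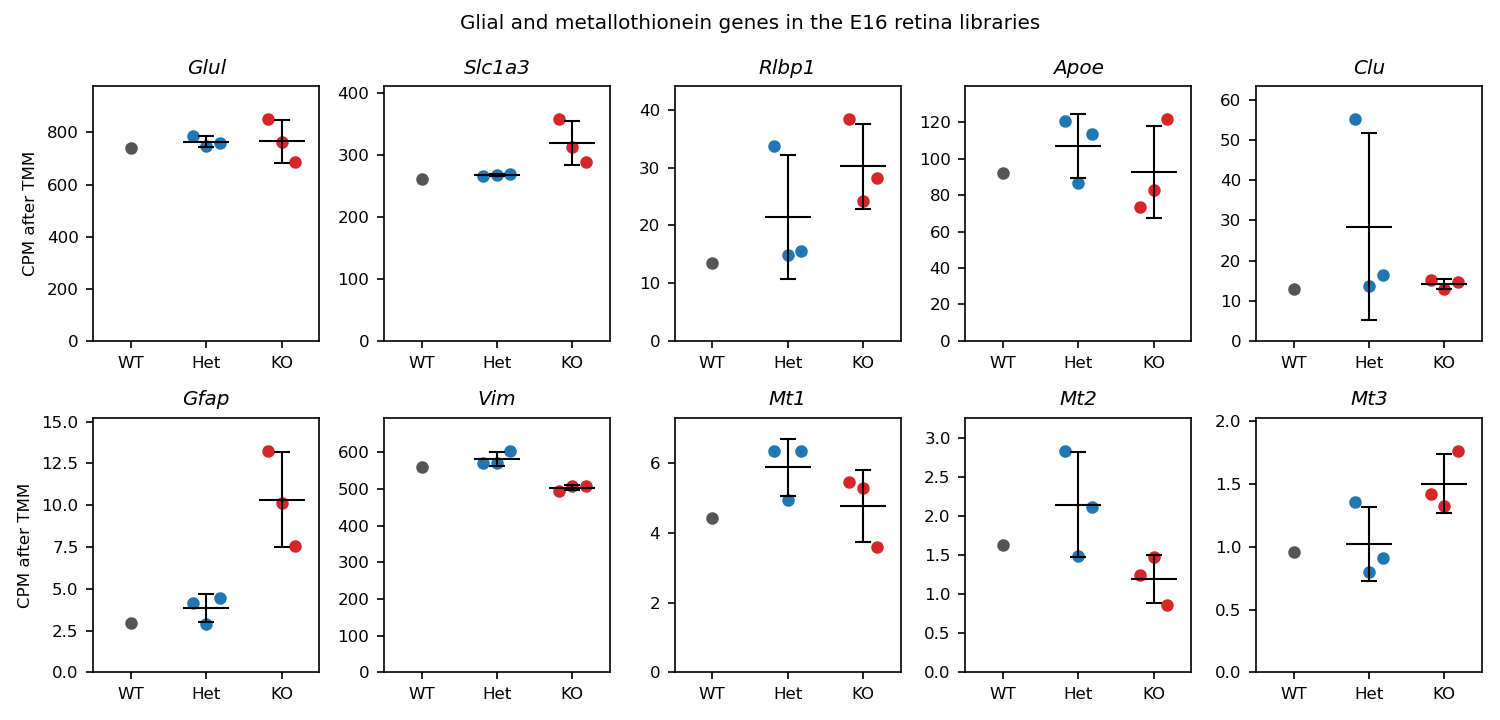
CPM after TMM scaling (y axis, from 0) of the 10 genes in the WT, Het and KO libraries (x axis), with 1 point per library, in replicate order from left to right within a genotype, and black marks for the mean and SD of 3 libraries. The KO libraries of *Gfap* lie at 7.57 to 13.3 CPM, above all Het libraries, and Het1 lies far above the other Het libraries for *Clu* and *Rlbp1*.

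*Gfap*, on chromosome 11 (GRCm38, chr11:102887336-102900912, minus strand), encodes the intermediate filament of astrocytes and of Müller glia under injury. It was measured at 2.94 CPM for WT, Het1, Het2 and Het3 read 4.14, 2.90 and 4.48 CPM, and KO1, KO2 and KO3 read 13.3, 10.1 and 7.57 CPM. The groups did not overlap, the smallest KO value being 7.57 and the largest Het value 4.48. The mean was 3.84 ± 0.83 CPM in Het and 10.3 ± 2.85 CPM in KO (SD, n = 3 each), so that KO stood 2.69-fold higher, with a log2 fold change of 1.43 (SE 0.24, 95% interval 0.84 to 2.01, edgeR adjusted p = 0.0189). Even in KO it was a weakly expressed gene, with at most 1757 counts in a library. With Het2, Het3 or KO2 left out, the adjusted p became 0.0713, 0.0554 and 0.0628, so that it was no longer called, while the log2 fold change over all such fits stayed between 1.21 and 1.61. A test against the fold limit itself (edgeR's glmTreat) gave an adjusted p of 0.0673.

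Other genes of astrocytes gave mixed values beside *Gfap*. *Pax2*, which marks astrocyte precursors and the optic stalk, was measured at 6.52 CPM in WT, at 8.87, 7.89 and 7.78 CPM in Het and at 7.87, 9.97 and 6.63 CPM in KO, with overlapping groups (log2 fold change -0.0046, edgeR adjusted p = 0.987). *Gja1*, the gap junction protein connexin 43 of astrocytes and many other cells, was at 8.47 and 10.2 CPM in KO1 and KO2 but at 125 CPM in KO3, against 81.5 to 130 CPM in Het, the same division of the KO libraries as in the erythroid and lens lists. Of the 12 astrocyte and optic stalk genes tested, 1 was called higher and 1 lower, with a median log2 fold change of -0.09 against -0.0047 over all genes. *Aldh1l1*, a folate enzyme of astrocytes, fell by 0.45 on the log2 scale (SE 0.08, edgeR adjusted p = 0.0233), from 4.58 ± 0.24 to 3.35 ± 0.08 CPM. *S100b*, a calcium-binding protein of astrocytes and Müller glia, rose by 1.29 (SE 0.19, edgeR adjusted p = 0.0126), from 0.59 ± 0.12 to 1.45 ± 0.14 CPM; it is named after its values were seen, since its mean lies below the 1 CPM set for naming. The number called in this list was 0 without Het2 or KO2, 1 without Het3 or KO1 and 3 without KO3.

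*Vim* (chr2:13573927-13582826, plus strand), the intermediate filament of progenitors and radial glia, went the other way. It was measured at 560 CPM for WT, Het1, Het2 and Het3 read 572, 572 and 604 CPM, and KO1, KO2 and KO3 read 495, 509 and 508 CPM. All KO libraries were below all Het libraries and below WT, with means of 583 ± 18.7 and 504 ± 7.90 CPM. This gave a log2 fold change of -0.21 (SE 0.04, 95% interval -0.30 to -0.12, edgeR adjusted p = 0.0194), which passes the adjusted p but lies inside the fold limit, so that *Vim* was not called. *Nes*, the filament protein nestin of neural progenitors, had a similar value of -0.17 (SE 0.05) and an edgeR adjusted p of 0.0850.

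Of the 12 tested genes of the list for filaments and reactive gliosis, edgeR called 0 and DESeq2 2, with 3 at an unadjusted edgeR p below 0.05 and a median log2 fold change of 0.03. Those 3, *Nes*, *A2m* and *Fgf2*, were all lower in KO without overlap with Het, while 8 of the 12 log2 fold changes were above 0. *A2m* and *Fgf2* had log2 fold changes of -0.68 and -0.47 (edgeR adjusted p = 0.0545 and 0.0684). *Cp*, the ferroxidase ceruloplasmin, was at 183 to 214 CPM in Het and at 198 to 208 CPM in KO (log2 fold change 0.01, edgeR adjusted p = 0.925). *Serpina3n*, an acute-phase protease inhibitor of reactive glia, was at 0.282 to 0.435 CPM over the 7 libraries. *Stat3* and *Socs3*, a transcription factor and a feedback inhibitor of the cytokine pathway that drives reactive gliosis, had log2 fold changes of 0.08 and 0.11 (edgeR adjusted p = 0.326 and 0.318). *A2m*, *Fgf2*, *Serpina3n*, *Stat3* and *Socs3* are named after their values were seen. Without Het1 or KO3, or with at least 10 counts required in every library, edgeR called 1 gene of this list.

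*Glul* (chr1:153899944-153909723, plus strand) encodes glutamine synthetase, which turns glutamate and ammonia into glutamine. Its level was 740 CPM for WT, Het1, Het2 and Het3 read 788, 748 and 758 CPM, and KO1, KO2 and KO3 read 851, 764 and 686 CPM. The KO libraries enclosed the whole Het range, and the SD was 82.3 CPM in KO against 20.8 in Het. Between KO and Het the log2 fold change was 0.0047 (95% interval -0.18 to 0.19, edgeR adjusted p = 0.973), and the interval lies within the fold limit used for calls.

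*Slc1a3* (chr15:8634124-8710764, minus strand) encodes GLAST, the glutamate transporter of Müller glia and progenitors. WT stood at 261 CPM, and Het1, Het2 and Het3 read 265, 267 and 269 CPM, a spread of 1.76 CPM (SD). The KO libraries stood at 357, 312 and 288 CPM, all above Het, with an SD of 35.3 CPM. The log2 fold change was 0.26 (SE 0.08, 95% interval 0.08 to 0.44), with an edgeR adjusted p of 0.0752, so that it was not called. Without KO3, the lowest of the KO libraries, the log2 fold change was 0.33 and the adjusted p 0.0249. DESeq2's Wald test gave 0.26 with an adjusted p of 0.00571, just inside the fold limit.

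*Rlbp1* (chr7:79374870-79387048, minus strand) encodes the retinaldehyde-binding protein of Müller glia and pigmented epithelium. It was at 13.5 CPM for WT, Het1, Het2 and Het3 read 33.8, 14.9 and 15.6 CPM, and KO1, KO2 and KO3 read 38.4, 24.2 and 28.1 CPM. The groups overlapped through Het1 alone, the library with 561 CPM of pigmented epithelium genes and 337 CPM of skeletal muscle genes. The part of such tissue in the *Rlbp1* value of Het1 was not tested. For *Rlbp1* the log2 fold change was 0.50 (SE 0.35, edgeR adjusted p = 0.375) with Het1 and 0.99 (adjusted p = 0.0361) without it, which is past both limits. In WT, Het2 and Het3 the gene spanned 13.5 to 15.6 CPM.

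Of the 10 genes that handle glutamate beside *Glul* and *Slc1a3*, 1 was called higher and 1 lower, with a median log2 fold change of -0.11. *Slc1a1*, the neuronal glutamate transporter EAAC1, rose by 0.73 (SE 0.16, edgeR adjusted p = 0.0333), from 7.74 to 10.9 CPM in Het to 13.5 to 16.7 CPM in KO. *Slc1a5*, a transporter of neutral amino acids, fell by 0.27 (SE 0.06, edgeR adjusted p = 0.0428). Without Het2, Het3 or KO2 no gene of this list was called, and without Het1 or KO3 1 was.

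*Apoe* (chr7:19696109-19699188, minus strand) encodes apolipoprotein E, the main lipid carrier made by glia. It was at 92.3 CPM for WT, Het1, Het2 and Het3 read 120, 86.7 and 113 CPM, and KO1, KO2 and KO3 read 73.7, 82.7 and 122 CPM. KO3 was the highest of all 7 libraries and KO1 the lowest, so the groups overlapped fully. For *Apoe* the log2 fold change was -0.21 (SE 0.21, 95% interval -0.70 to 0.28, edgeR adjusted p = 0.534). Microglia also make *Apoe*. The microglia and macrophage list summed to 68.7 to 94.7 CPM in Het and to 91.8 to 123.4 CPM in KO, and its part in the *Apoe* values was not tested.

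*Clu* (chr14:65968483-65981547, plus strand) encodes clusterin, a secreted chaperone. It was at 13.0 CPM for WT, Het1, Het2 and Het3 read 55.2, 13.6 and 16.5 CPM, and KO1, KO2 and KO3 read 15.1, 12.8 and 14.7 CPM. Apart from Het1 the 6 libraries lay within 12.8 to 16.5 CPM. The log2 fold change was -1.0 (SE 0.52, edgeR adjusted p = 0.246) with Het1 and -0.08 (adjusted p = 0.679) without it.

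Of the 15 genes of the lipoprotein pathway, 1 was called higher and none lower, with a median log2 fold change of 0.07. *Vldlr*, a receptor for apolipoprotein E and reelin, rose by 0.27 (SE 0.04, edgeR adjusted p = 0.0162), from 117 to 126 CPM in Het to 139 to 150 CPM in KO, just past the fold limit. It was called with all libraries and without Het1 or KO3. Without Het2, Het3, KO1 or KO2 no gene of this list was called, while 2 were without Het1. *Abca1*, the lipid exporter that loads apolipoproteins, named after its values were seen, was at 6.5 to 9.96 CPM in Het and at 7.31 to 14.3 CPM in KO (log2 fold change 0.36, edgeR adjusted p = 0.395).

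**Figure D3:**
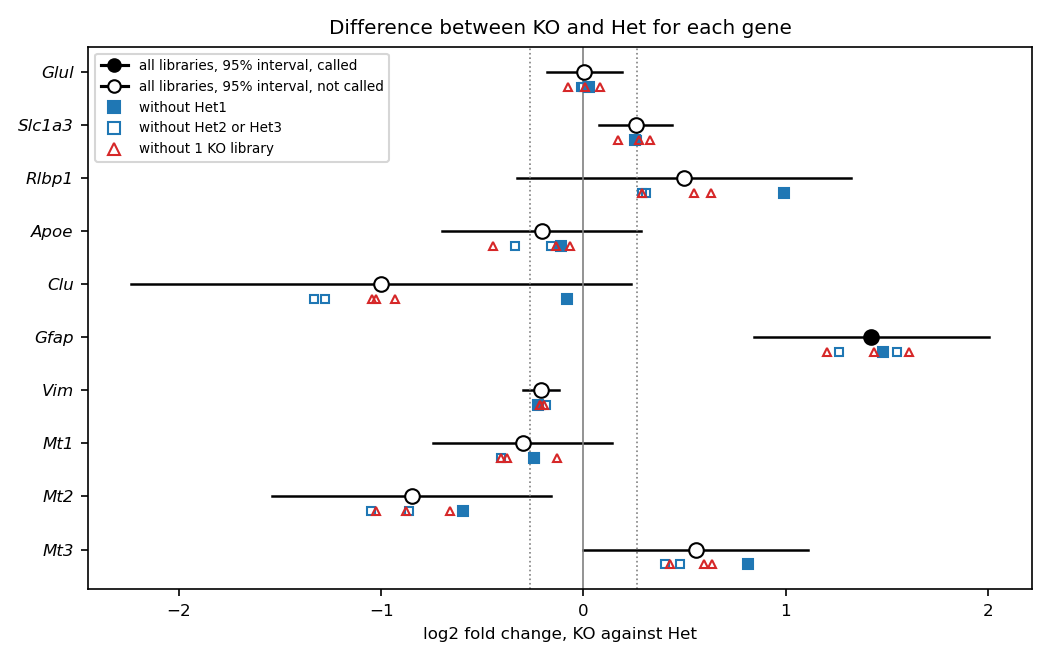
Log2 fold change of KO against Het (x axis) for the 10 genes (y axis), with 95% intervals from the fit to all 7 libraries and, below each, the values of fits that leave out 1 library. Dotted lines mark the fold limit of 0.26 on either side. *Gfap* is the filled point at 1.43, and leaving out Het1 (filled square) moves *Clu* from -1.0 to -0.08 and *Rlbp1* from 0.50 to 0.99.

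*Mt3*, *Mt2* and *Mt1* lie in this order on chromosome 8, all on the plus strand, at chr8:94152607-94154146, chr8:94172664-94173568 and chr8:94179082-94180327. *Mt1* and *Mt2* are the widely inducible metallothioneins, and *Mt3* is the form of neurons and astrocytes. *Mt4*, the epithelial member of the cluster, had 0 counts in all 7 libraries. The 250 bases before the RefSeq starts of *Mt1*, *Mt2* and *Mt3* (GRCm38.p6, plus strand, chr8:94178839-94179088, chr8:94172368-94172617 and chr8:94152357-94152606) are printed to show matches to the metal response element. Capitals mark matches to the core letters TGCACNC or TGCGCNC on either strand, where N is any base.
Mt1: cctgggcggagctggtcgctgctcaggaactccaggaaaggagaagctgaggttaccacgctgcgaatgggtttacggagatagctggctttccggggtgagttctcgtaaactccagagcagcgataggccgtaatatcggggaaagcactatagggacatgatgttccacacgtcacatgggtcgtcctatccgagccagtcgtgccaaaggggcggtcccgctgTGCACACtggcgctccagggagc
Mt2: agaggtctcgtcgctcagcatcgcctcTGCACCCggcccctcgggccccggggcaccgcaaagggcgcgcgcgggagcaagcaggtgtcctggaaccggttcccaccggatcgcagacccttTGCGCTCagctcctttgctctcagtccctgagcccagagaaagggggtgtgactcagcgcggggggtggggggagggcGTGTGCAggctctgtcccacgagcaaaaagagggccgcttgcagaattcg
Mt3: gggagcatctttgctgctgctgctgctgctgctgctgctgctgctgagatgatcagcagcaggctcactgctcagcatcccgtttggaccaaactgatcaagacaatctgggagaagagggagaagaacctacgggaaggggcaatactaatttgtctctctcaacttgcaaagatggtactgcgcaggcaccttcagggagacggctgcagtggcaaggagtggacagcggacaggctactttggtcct
*Mt1* held 1 match, *Mt2* 3 and *Mt3* 0 in these windows. Of 32851 RefSeq promoter entries, 21.4% held at least 1 match and 1.26% at least 3. The annotated starts are not the whole promoter, since the GENCODE transcripts of all 3 genes carry a TATAAA inside their first exon, at base 129 for *Mt1*, base 90 for *Mt2* and base 107 for *Mt3*. In the first 150 bases of these transcripts, *Mt1* held 4 matches, *Mt2* 3 and *Mt3* 3, all of them before the TATAAA. Among 58695 protein-coding transcripts, 0.388% held at least 3 matches in their first 150 bases. The match nearest to the TATAAA is shown in its 30 bases for each gene (GRCm38, plus strand, chr8:94179176-94179205, chr8:94172718-94172747 and chr8:94152682-94152711), again with the matched letters in capitals.
Mt1: tgcaaacccttTGCGCCCggactcgtccaa
Mt2: ggcggagctttTGCGCTCgacccaatactc
Mt3: aagtcgctgctTGCGCGCccccgcctgggg
A match is a description of the sequence. No metal, MTF1 binding or promoter use was measured in these libraries.

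*Mt1* was measured at 4.42 CPM for WT, Het1, Het2 and Het3 read 6.33, 4.94 and 6.35 CPM, and KO1, KO2 and KO3 read 5.44, 5.27 and 3.59 CPM. The groups overlapped (log2 fold change -0.30, SE 0.19, edgeR adjusted p = 0.320). *Mt2* was at 1.63 CPM for WT, Het1, Het2 and Het3 read 2.84, 1.49 and 2.12 CPM, and KO1, KO2 and KO3 read 1.25, 1.47 and 0.863 CPM. The *Mt2* groups did not overlap, but Het2 and KO2 were 1.49 and 1.47 CPM, and KO3 rests on 115 counts. Its log2 fold change was -0.85 (SE 0.29, 95% interval -1.54 to -0.16, edgeR adjusted p = 0.107), and -0.60 (adjusted p = 0.220) without Het1. DESeq2 gave -0.85 with an adjusted p of 0.0316, so that *Mt2* was called by that tool.

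*Mt3* pointed the other way. It was at 0.955 CPM for WT, Het1, Het2 and Het3 read 1.35, 0.797 and 0.909 CPM, and KO1, KO2 and KO3 read 1.42, 1.32 and 1.76 CPM. Het1, at 1.35 CPM, lay above KO2, and the other Het libraries lay below all KO libraries. The log2 fold change was 0.56 (SE 0.23, edgeR adjusted p = 0.170) with Het1 and 0.81 (adjusted p = 0.0539) without it. The counts of *Mt3* ranged from 95 to 235 per library.

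Ratios of the metallothioneins within a library do not depend on library size. The ratio of *Mt2* to *Mt1* counts was 0.369 in WT, 0.448, 0.303 and 0.333 in Het1 to Het3 and 0.229, 0.28 and 0.241 in KO1 to KO3. The ratio of *Mt3* to *Mt1* counts was 0.216 in WT, 0.214, 0.162 and 0.143 in Het and 0.261, 0.251 and 0.492 in KO. Neither ratio overlapped between Het and KO, with mean log2 differences of -0.52 and 0.90 (two-sided exact permutation p = 0.1 for each, which is the smallest that 3 libraries against 3 allow, for 2 ratios). This permutation test cannot pass a threshold of 0.05 with these numbers of libraries. Without KO3 the second difference was 0.58. The 3 genes summed to 7.23 to 10.5 CPM in Het and to 6.22 to 8.10 CPM in KO, so the summed level overlapped while its makeup did not. *Mt3* made 9.71% to 12.9% of the summed counts in Het and 16.4% to 28.4% in KO. *Mt1* and *Mt2* encode closely similar proteins, and how reads mapping to both were counted is not given in the sources used here.

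**Figure D4:**
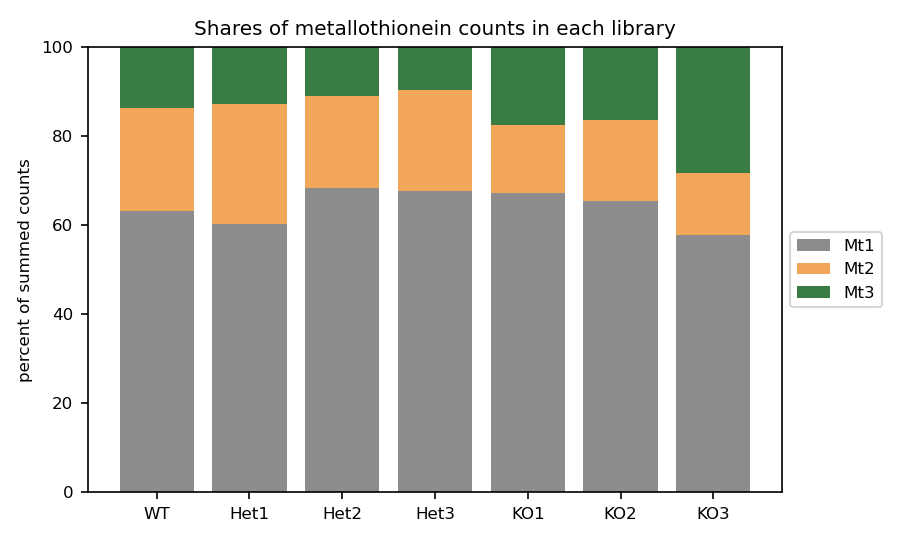
Share of *Mt1*, *Mt2* and *Mt3* in their summed counts (y axis, percent) in each of the 7 libraries (x axis). The green *Mt3* share is 9.71% to 12.9% in the Het libraries and 16.4% to 28.4% in the KO libraries, with 13.6% in WT.

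Around the metallothionein cluster, the nearest tested genes on the *Mt3* side, *Bbs2*, a component of the ciliary BBSome, and *Ogfod1*, a ribosomal prolyl hydroxylase, were both called higher in KO, by 0.28 and 0.29 on the log2 scale (edgeR adjusted p = 0.0185 and 0.0147). Both calls were lost without Het2, Het3 or KO2, where the adjusted p was 0.0583 to 0.0725 for *Ogfod1* and 0.0612 to 0.0712 for *Bbs2*, and that of *Bbs2* also without KO1, where its log2 fold change was 0.258. The nearest on the *Mt1* side, *Nup93*, a nuclear pore protein, and *Herpud1*, a protein of the stress response of the endoplasmic reticulum, had log2 fold changes of 0.05 and -0.04 (edgeR adjusted p = 0.319 and 0.530). Of the 100 tested genes around *Mt2*, 50 on each side, 14 were called, 12 higher and 2 lower. The overlapping windows of *Mt1* and *Mt3* gave the same numbers. Over all genes tested, 7.22% were called, 4.01% higher and 3.21% lower. The ends of the range for the other members were 3 of 78 around *Slc1a3* and 11 of 100 around *Glul*.

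Genes that handle zinc and copper showed 2 called higher and 1 called lower among 28 tested, with a median log2 fold change of -0.06. *Slc30a3*, which loads synaptic vesicles with zinc, rose by 0.78 (SE 0.12, edgeR adjusted p = 0.0143), from 1.55 to 1.82 CPM in Het to 2.70 to 3.11 CPM in KO. *Slc30a10*, a manganese exporter, rose by 0.48 (SE 0.09, edgeR adjusted p = 0.0250), and *Slc39a11*, a zinc importer, fell by 0.30 (SE 0.05, edgeR adjusted p = 0.0163). The regulator *Mtf1* itself was at 24.6 to 25.2 CPM in Het and at 25.7 to 27.1 CPM in KO (log2 fold change 0.09, edgeR adjusted p = 0.174), and *Slc30a1*, the zinc exporter that MTF1 controls, had a log2 fold change of -0.09 (edgeR adjusted p = 0.185). *Mtf1* and *Slc30a1* are named after their values were seen, for their role. Without Het2 or Het3 no gene of this list was called, and without KO2 1 was.

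Other lists that bear on metallothionein induction were read in the same way. In the glucocorticoid list 1 of 9 genes was called, *Klf9*, a transcription factor induced by glucocorticoid and thyroid hormone, which rose by 0.92 (SE 0.13, edgeR adjusted p = 0.0126), from 14.2 to 19.4 CPM in Het to 28.3 to 34.9 CPM in KO. Without Het2 no gene of that list was called. Of the 11 genes of the oxidative stress list, edgeR called 0 with all libraries, with 3 at an unadjusted p below 0.05 and a median log2 fold change of -0.05, while 1 was called by DESeq2, with adjusted p alone and without KO3. In the hypoxia list 3 of 10 genes were called higher and none lower, with a median of 0.28 and a log2 fold change above 0 in all 10. *Vegfa*, the vascular growth factor, rose by 0.48 (SE 0.04, edgeR adjusted p = 0.0044), and *Ndrg1* by 0.37 (SE 0.09, edgeR adjusted p = 0.0413). The hypoxia list kept 1 or 2 called genes with any single library left out, and KO1 and KO2 were also the libraries with the least erythroid RNA, whose part in these values was not tested. *Vegfa* was at 76.0, 78.6 and 79.1 CPM in KO1 to KO3. The list without its most abundant gene, *Slc2a1*, summed to 1030, 946 and 902 CPM in KO1 to KO3 and to 783, 855 and 821 CPM in Het1 to Het3. KO3 held 298 CPM of erythroid genes, and a relation to the hypoxia values was not tested.

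The wider list of mature Müller glia held 20 genes outside the 10 described so far, all tested, of which 2 were called higher and 2 lower, with 8 log2 fold changes above 0 and a median of -0.10. These 4 calls among 20 genes stand beside 7.22% over all genes tested. Het and KO did not overlap in 11 of the 20, beside 36.3% over all genes tested. *Car2*, a cytosolic carbonic anhydrase, was at 59.0 CPM in WT, 65.2, 60.2 and 56.0 CPM in Het and 125, 97.5 and 91.3 CPM in KO, and rose by 0.79 (SE 0.12, edgeR adjusted p = 0.0143). *Crym*, which binds thyroid hormone, rose by 0.63 (SE 0.11, edgeR adjusted p = 0.0197). *Rgr*, a retinoid-binding opsin of Müller glia and pigmented epithelium, was at 1.51 CPM in WT, 2.19, 1.88 and 1.89 CPM in Het and 0.679, 0.836 and 0.901 CPM in KO, and fell by 1.30 (SE 0.15, edgeR adjusted p = 0.0076). *Car14*, a membrane carbonic anhydrase, fell by 1.08 (SE 0.19, edgeR adjusted p = 0.0195). The carbonic anhydrases of the list thus moved in opposite directions, each without overlap of Het and KO. *Dkk3*, a secreted protein and the most abundant gene of the list, had a log2 fold change of -0.17 (SE 0.05, edgeR adjusted p = 0.0671) at 1568 ± 60.9 CPM in Het and 1392 ± 49.8 CPM in KO. Without Het2 or Het3 1 gene of this list was called, without KO2 2 and without KO3 6.

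**Figure D5:**
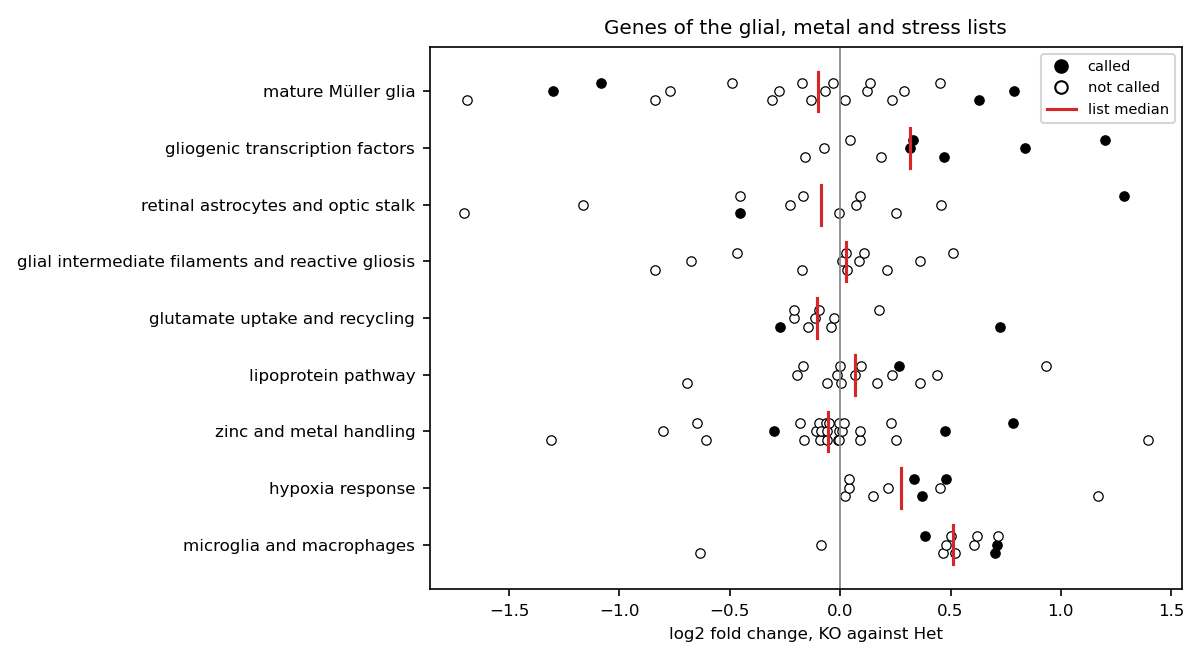
Log2 fold change of KO against Het (x axis) for each tested gene of 9 lists (y axis), with filled points for called genes, open points for the others and a red line at the median of the list. The mature Müller glia list has 2 filled points on each side of 0 and a median of -0.10, and the 5 filled points of the gliogenic transcription factors all lie above 0.

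Among 9 transcription factors that promote gliogenesis or act in late progenitors, 5 were called higher and none lower, with a median log2 fold change of 0.32. *Nfix* rose by 1.2 (SE 0.28, edgeR adjusted p = 0.0434), from 21.4, 10.2 and 11.3 CPM in Het1 to Het3 to 37.9, 29.9 and 31.1 CPM in KO1 to KO3. *Sox8* rose by 0.84 (SE 0.09, edgeR adjusted p = 0.0063), from 141, 122 and 121 CPM to 256, 213 and 218 CPM. The others called were *Nfib* (0.47), *Nfia* (0.33) and *Hes5* (0.32), named after their values were seen. *Hes1*, the Notch effector of progenitors, had a log2 fold change of -0.16 (edgeR adjusted p = 0.0747). These genes were part of what was already known of the data when the list was written. The number called was 1 without Het2 or Het3, 3 without Het1 and 2 without any 1 of the KO libraries.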

How the data were processed

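Stranded mRNA libraries were prepared from RNA of pooled retinas. The labels name TRIzol for the extraction and the methods a column kit. The authors ran STAR through rMATS-turbo on GRCm38 (GENCODE M10) and featureCounts on the alignments, and deposited whole-number counts per gene without normalization. Tool versions, the strand setting and the handling of reads that map more than once are not given in the sources used here, so counts of the metallothioneins, which are close paralogs, and of genes with an overlapping partner are uncertain. *Glul* overlaps *Teddm2* and *Mir8114*, *Slc1a3* overlaps *Gm37310* and *Gfap* overlaps *Gm26668*, each with at most 95 counts in a library, and *Mt2* overlaps the antisense gene *Gm45774*, for which no counts were analysed here.

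All 7 libraries entered 1 fit of edgeR 4.0.16 under R 4.3.3 (filterByExpr, TMM factors of 0.988 to 1.03, glmQLFit, glmQLFTest), with a mean per genotype and Benjamini-Hochberg adjustment over 20019 genes. SEs were the log2 fold change over the square root of F. TPM and coordinates used GENCODE M21 (GRCm38). The script was tested on simulated data. No pair of replicates was a copy. The 10 genes and the 18 lists were chosen with earlier results of these data known. All 10 genes are named, with the 2 most abundant genes and up to 2 called rises and falls per list (mean of at least 1 CPM) and the 5 nearest tested genes on each side of the metallothionein cluster as the pool for the text. *Pax2*, *Aqp4*, *Sox9*, *Rpe65*, *Mt4* and *Cdh5* were named beside that rule, for their role, after their values were seen. The result for 1 gene of the lists is not reported here. The fold limit and the threshold are those of the study methods. Alternatives were DESeq2 1.42.0, other normalizations and filters, 6 libraries alone, a replicate block, adjusted p alone, glmTreat and each library left out.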

Additional observations from a re-analysis of the deposited data

How the results depend on the processing

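The 10 genes were followed under 15 alternatives. Of their 150 log2 fold changes, 139 kept their direction and their side of the limits, 4 were newly called, 4 were no longer called and 3 changed sign. The number of the 10 genes called was 2 with DESeq2 (*Gfap* and *Mt2*), 2 with adjusted p alone (*Gfap* and *Vim*), 0 with glmTreat and 0 to 2 with 1 library left out, against 1 in all other settings. Over all genes, 1445 calls became 2221 with adjusted p alone, 217 with glmTreat, 2061 with DESeq2 and 386 (without Het2) to 1674 (without KO3) with 1 library left out, with 496 without Het3 and 612 without KO2. For the mature Müller glia list, 4 became 1 with glmTreat and 1 to 6 with 1 library left out. The cause of these changes was not tested, and the fits that leave out a library also hold fewer libraries.

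The signs that changed with a library left out belonged to values near 0 or to the muscle genes of Het1, namely *Glul* (-0.076 to 0.082), *Lhx2* (-0.013 to 0.059), *Slc1a2* (-0.021 to 0.12), *Cp* (-0.055 to 0.058), *Lrp1* (-0.061 to 0.074), *Gsr* (-0.019 to 0.029), *Myh3* (-5.30 to 0.051) and *Acta1* (-5.24 to 0.22). The metallothionein ratios kept their sign, with log2 differences of -0.64 to -0.35 for *Mt2* to *Mt1* and 0.58 to 1.07 for *Mt3* to *Mt1*. Same-numbered Het and KO libraries showed no sign of pairing (correlations of their deviations -0.20, 0.16 and -0.07). Unlike-numbered libraries gave -0.30 to 0.26, and with 3 libraries per group this check cannot exclude pairing. With the replicate number as a block on the 6 Het and KO libraries, 1268 genes were called, against 1544 in those libraries without the block, and 1 of the 10 genes was called in both fits. Against the 6 libraries without it, the block moved the calls of the microglia list from 3 to 0, of endothelium and pericytes from 2 to 6, of erythroid cells from 0 to 3, of the lipoprotein pathway from 1 to 2, of astrocytes and of glutamate handling from 2 to 1 each, and of the gliogenic factors from 5 to 4, and left the other lists at the same numbers. Counts of *Mt2* and *Mt3* of 95 to 482 per library limit what could be seen of these genes.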

Other observations

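Microglia and macrophage genes, which the Cre transgene does not target, were measured beside the glial genes. Of 12 genes tested, 3 were called higher in KO and none lower, with a median log2 fold change of 0.51. *Cx3cr1*, the fractalkine receptor of microglia, rose by 0.71 (SE 0.17, edgeR adjusted p = 0.0429), from 10.1, 10.01 and 13.0 CPM in Het1 to Het3 to 15.2, 22.2 and 16.9 CPM in KO1 to KO3. The calls were not stable, with 0 left without Het1, Het2 or KO2, 1 without Het3 or KO3 and 2 without KO1, while DESeq2 called 7.

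Of the 10 endothelial and pericyte genes, *Kdr*, the receptor for the *Vegfa* product, rose by 0.44 and *Pdgfrb*, a pericyte receptor, fell by 0.41 (edgeR adjusted p = 0.0187 and 0.0233). The median log2 fold change of the list was -1.59, with 2 of the 10 above 0. Without *Kdr* the list summed to 63.0, 47.2 and 78.1 CPM in Het1 to Het3 and to 34.4, 30.1 and 54.1 CPM in KO1 to KO3. No gene of the list was called without Het2 or Het3, 1 without KO1 or KO2 and 8 without KO3. *Kdr* is also expressed by retinal progenitors. *Cdh5*, which is restricted to endothelium, was at 3.21 to 9.77 CPM in Het and at 0.988, 0.555 and 4.41 CPM in KO1 to KO3. Of the 8 erythroid genes, edgeR called 0 with all libraries and 8 without KO3, with 3 at an unadjusted p below 0.05, and DESeq2 called 2. Their median log2 fold change was -1.61, with 0 of the 8 above 0. Of 13 lens genes tested 2 were called lower, with 0 called without Het2, Het3 or KO2, 1 without KO1 and 5 without KO3. Of 5 oligodendrocyte, 11 pigmented epithelium and 11 skeletal muscle genes, edgeR called 0 with all libraries, and 3, 4 and 9 had an unadjusted p below 0.05. DESeq2 called 1, 1 and 0 of them, and edgeR called 1 pigmented epithelium gene without KO3. Of 12 photoreceptor precursor genes 7 were called higher and none lower, with a median of 0.58, and 1 was called without Het2 and 2 without Het3.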
